A study of Homo sapiens with 6 samples.

Results

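The cytosolic ribosomal protein genes were taken from all 6 arrays by name, as the gene probes whose symbol begins with RPL or RPS followed by a number, together with RPSA, RPLP0, RPLP1 and RPLP2. The S6 kinases and the Y-linked paralogs were left out. This gave 84 genes of the 25940 gene names on the array, and 167 of its 34127 probes. Of the 84 genes, 52 code for proteins of the large 60S subunit and 32 for proteins of the small 40S subunit, and 7 of the 84 are tissue-restricted or alternative paralogs (RPL3L, RPL7L1, RPL10L, RPL22L1, RPL26L1, RPL39L and RPS27L).

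RNA came from pLUM and pLB, a pure luminal and a pure luminobasal line, both made from T47Dco, a subline of the T47D human breast cancer cells, grown as xenografts in ovariectomized NSG mice. pLUM came from an estradiol (E) tumor. Its cells were cultured for about 2 months in 1 nM E and sorted as CLD3+ CD49f-. They were cultured for about 2 months more in E, re-sorted and maintained in E. For the arrays pLUM were given 1 nM E for 72 h. pLB came from a tumor under E plus progesterone. Its cells were cultured estrogen-withdrawn (EWD) for about 2.5 months and sorted as CLD3- CD49f+. They were cultured for about 2 months more, re-sorted and kept EWD. Each line was measured in triplicate sorts on 1-colour Agilent arrays, the lines were not cloned, and the sources used here do not state which cytokeratin 5 fraction was hybridized. Line, tumor of origin, hormone and time in culture coincided on all 6 arrays and cannot be told apart. KRT5, the basal cytokeratin 5, gave a signal well above background on the 3 pLB arrays and on 0 pLUM arrays, and PGR, the progesterone receptor, on the 3 pLUM arrays and on 0 pLB arrays. EGFR, the epidermal growth factor receptor, was higher in pLB by 7.49 on the log2 scale (limma adjusted p = 4.1e-07), with 2 of 3 pLUM arrays above background, and CLDN3, the claudin of the sort, differed by -6.70 (adjusted p = 4.1e-07).

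A cytosolic ribosome joins 1 copy of most of these proteins to ribosomal RNA, and the proteins are made in the cytoplasm, carried to the nucleolus and built into the subunits there. Their mRNAs are among the most abundant of a dividing cell. Most begin with a 5′ terminal oligopyrimidine (TOP) tract, a run of C and U at the cap through which mTOR signalling and LARP1 set how much of the mRNA is translated, so that the level of an mRNA measured on an array is not the amount of protein made. Transcription of the genes is driven by factors that include MYC, and estrogen is known to induce MYC and growth in luminal breast cancer cells.

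Start windows are shown because the TOP tract is the feature that most of these mRNAs share, and because it separates some paralogs from their parent genes. Each window holds 15 bases before and 15 bases from the start annotated in RefSeq for GRCh38.p14, 5′ to 3′ on the strand of the gene. Capitals mark a run of at least 5 pyrimidines that begins with C within 5 bases of the start.
RPL11 (chr1:23691791-23691820, plus strand): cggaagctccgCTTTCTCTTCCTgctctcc
RPL3 (chr22:39319609-39319638, minus strand): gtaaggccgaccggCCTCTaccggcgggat
RPLP2 (chr11:809952-809981, plus strand): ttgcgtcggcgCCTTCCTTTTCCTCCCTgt
RPS6 (chr9:19380222-19380251, minus strand): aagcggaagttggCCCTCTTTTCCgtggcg
RPS27 (chr1:153990747-153990776, plus strand): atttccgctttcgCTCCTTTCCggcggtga
RPS27L (chr15:63157463-63157492, minus strand): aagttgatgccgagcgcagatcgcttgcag
RPL26 (chr17:8383179-8383208, minus strand): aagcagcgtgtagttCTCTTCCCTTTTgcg
RPL26L1 (chr5:172958714-172958743, plus strand): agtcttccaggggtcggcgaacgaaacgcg

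The RefSeq promoter table held 67 of the 84 genes. A tract of this kind was present at a start of 54 of the 67, or 80.6%, against 25.2% of the 27305 genes in the table. RPS27 and RPL26 had one, and RPS27L and RPL26L1 did not. In the window from 250 bases before to 50 bases after the start, read on both strands, the ETS and GABP motif CCGGAAG was found at 35.8% of the 67 genes and 12.2% of all genes, and the YY1 motif AAGATGGC at 10.4% and 3.52%. The GC box GGGCGG, the E-box CACGTG and the TATA box TATAAA were found at 58.2%, 7.46% and 10.4% of the 67 genes, against 48.3%, 8.77% and 14% of all genes. These matches describe letters in a window and not sites in use.

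Each signal was divided by the 75th percentile of its array and expressed as log2, so that 0 is that percentile and 1 unit is a 2-fold difference. Of the 167 probes, 163 gave a signal well above background on 3 or more arrays and were tested with limma across all 23106 such probes, with Benjamini-Hochberg adjustment. The 4 others were not tested, and every gene kept at least 1 probe. A gene is represented by its brightest tested probe. Ribosomal protein mRNAs sat at the bright end, with 149 or 150 of the member probes above the 75th percentile on each array and none saturated.

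Ribosomal protein mRNAs were mostly higher in pLB, by small amounts. The median difference of pLB minus pLUM over the 84 genes was 0.65 on the log2 scale, or 1.57-fold, with the middle of the distribution between 0.38 and 0.93, and 77 of the 84 differences were above 0. Over all 17671 tested genes the median was 0.04 and the quartiles were -0.93 and 0.92. At an adjusted p under 0.05, 50 of the 84 genes were higher in pLB, or 59.5%, against 32.4% of all tested genes. Only RPL39L and RPS27L were lower, or 2.38%, against 31.0% of all. At a difference of at least 2-fold the picture was another: 18 genes were higher, or 21.4%, against 22.7% of all, and 0 were lower, against 23.0%. With this scaling the share of ribosomal protein genes over 2-fold higher was thus near that of all genes. Over probes the 2-fold share depended on the processing. After normexp background correction it was 22.7% against 13.0% of all probes. With slide as a block, which rests on pLB replicate 1, it was 33.7% against 22.5%. Under quantile normalization it was 5.52% against 20.3%, and under cyclic loess 6.13% against 22.6%, so that members were then below all probes. All 3 pLB arrays lay above all 3 pLUM arrays for 58 genes, against 35.7% of all, and below for 2, against 33.4%. In RNA from a whole sort, a change in the share of some cells and a change in RNA per cell cannot be told apart.

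**Figure D1:**
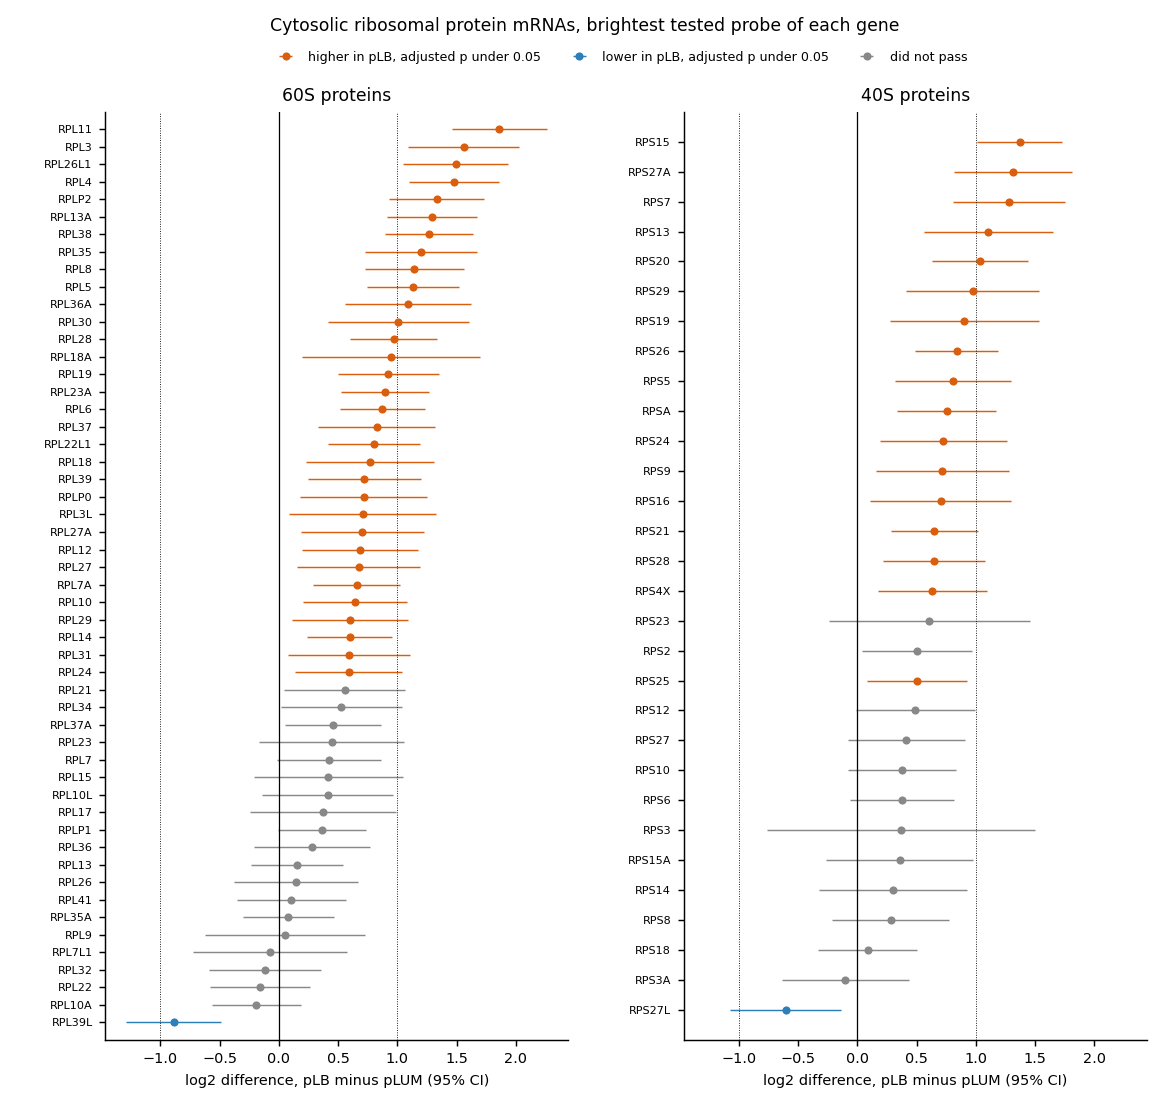
Log2 difference of pLB minus pLUM (x axis) for each ribosomal protein gene (y axis), for genes of the 60S subunit on the left and of the 40S subunit on the right, of which 2 are not shown. Points are limma estimates from 3 arrays against 3, bars are 95% confidence intervals, dotted lines mark a 2-fold difference, and colours give the call at an adjusted p under 0.05. Most points lie between 0 and 1, RPL11 is highest at 1.86, and RPL39L at -0.89 and RPS27L at -0.61 are the only genes called lower.

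The genes of both subunits had similar medians. The median was 0.67 for the 60S genes, of which 32 of 52 were higher and 1 was lower, and 0.64 for the 40S genes, of which 18 of 32 were higher and 1 was lower. The genes lie on 21 chromosomes. With or without a tract at the start the medians were close, at 0.65 for the 54 genes with one and 0.63 for the 13 without.

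The size of the shift rested on how the arrays were scaled. After quantile normalization the median over the 163 probes fell from 0.59 to 0.29, and after cyclic loess, which removes differences that run with brightness, to 0.34. The share of genes called higher then was 32.1% under quantile normalization, against 30.7% of all genes, and 33.3% under cyclic loess, against 33.8% of all, so that the excess over other genes was gone under both. The shortage of genes called lower remained, at 3.57% of members under each, against 33.9% and 31.1% of all. Centring on the spike-in controls gave a median of 0.84, against 0.24 for all probes. Brightness moved with the difference: when the tested probes were cut by level into 10 bins of equal size, the brightest bin held 134 member probes with a median of 0.62 and 2177 other probes with a median of 0.21. The part of brightness in the members' shift was not tested.

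**Figure D2:**
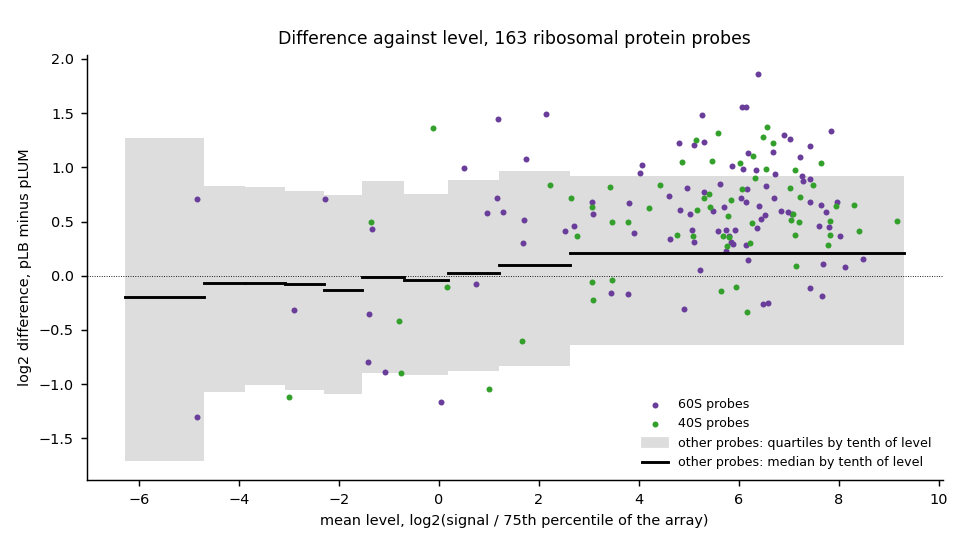
Log2 difference of pLB minus pLUM (y axis) against mean level over 6 arrays, as log2 of signal over the 75th percentile (x axis), for 163 ribosomal protein probes. Grey boxes and black lines are the quartiles and the median of all other tested probes in each of 10 bins of level. In the brightest bin the other probes have a median of 0.21 and the 134 member probes one of 0.62.

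**Figure D3:**
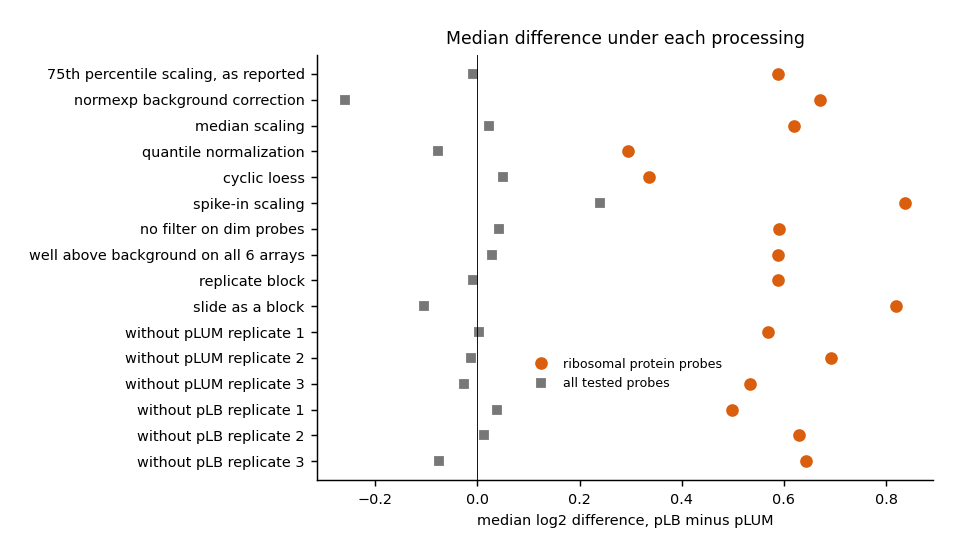
Median log2 difference of pLB minus pLUM (x axis) under each processing (y axis), with circles for the 163 ribosomal protein probes and squares for all tested probes. The members lie above all probes in each setting, with a gap of 0.29 under cyclic loess and 0.37 under quantile normalization against 0.60 as reported.

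The arrays of a line did not carry the shift equally. Relative to the pLUM mean, the median member probe was at -0.07, 0.17 and -0.09 on pLUM replicates 1, 2 and 3, and at 0.82, 0.51 and 0.40 on pLB replicates 1, 2 and 3. All 3 pLB arrays were above all 3 pLUM arrays, and pLB replicate 1 was highest. This replicate shared a slide with the 3 pLUM arrays, whereas pLB replicates 2 and 3 were on another slide. Within the shared slide the median difference was 0.82, with 145 of 163 probes above 0. Of the probes, 82 were called higher, or 50.3% against 31.1% of all, and 8 lower, or 4.91% against 31.6%. At 2-fold, 29 probes were higher, or 17.8% against 21.9%, and 4 lower, or 2.45% against 23.7%. On every array the lines were apart upwards for 91 probes, against 34.3% of all, and downwards for 10, against 33.8%. The 82 fell to 51 without pLUM replicate 1, or 31.3% against 27.8% of all probes, to 51 without pLUM replicate 3, or 31.3% against 28.8%, and to 53 without pLB replicate 1, or 32.5% against 29.3%. The excess over all probes was then small. Without pLB replicate 3, 94 were called, or 57.7% against 32.0%.

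RPL11, a 60S protein that binds MDM2 when ribosome assembly is disturbed, had the largest difference of the 84 genes. Its probe was at 5.26, 5.50 and 5.60 in pLUM and at 7.46, 7.27 and 7.22 in pLB. The lines did not overlap, and the difference was 1.86 ± 0.17 (SE, as for each ± that follows, n = 3 per line), or 3.63-fold, with an adjusted p of 8e-05. The probe lies in the coding sequence of NM_000975, within 1 exon, at chr1:24021173-24021232 of hg19 on the plus strand, and is shown in full as the sequence that carried this value.
RPL11 probe: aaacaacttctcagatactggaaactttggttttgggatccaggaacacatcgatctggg

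RPL5 binds the 5S RNA together with RPL11 and enters the ribosome as part of that complex. It was at 5.53, 5.77 and 5.56 in pLUM and 6.75, 6.60 and 6.89 in pLB, again without overlap. The difference was 1.13 ± 0.17 (adjusted p = 0.00080). By the brightest probe both partners were over 2-fold higher in pLB. The other tested RPL5 probes were called higher at 0.99 and 0.98, just under 2-fold.

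RPL3, which lies near the peptidyl transferase centre, was at 5.19, 5.41 and 5.53 in pLUM and at 7.18, 6.99 and 6.64 in pLB, a difference of 1.56 ± 0.20 (adjusted p = 0.00041). RPL4, which lines part of the exit tunnel of the nascent chain, was at 4.39, 4.65 and 4.54 in pLUM and 5.92, 6.11 and 5.98 in pLB, a difference of 1.48 ± 0.16 (adjusted p = 0.00018). Neither gene overlapped between the lines. Of the other 60S genes, RPL13A, RPL38, RPL35, RPL8, RPL36A and RPL30 were 2.01-fold to 2.45-fold higher, and none of these overlapped. RPL13A also acts outside the ribosome in a complex that silences inflammatory mRNAs, and RPL38 is known for a part in the translation of Hox mRNAs.

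In the 40S subunit the largest difference was that of RPS15, a protein of the head of the subunit that is needed for its export from the nucleus. It was at 5.85, 5.99 and 5.82 in pLUM and 7.35, 7.21 and 7.23 in pLB, a difference of 1.37 ± 0.15 (adjusted p = 0.00020). RPS27A, which is made as a fusion with ubiquitin, was at 4.95, 5.09 and 4.74 in pLUM and 6.55, 6.23 and 5.93 in pLB, a difference of 1.31 ± 0.21 (adjusted p = 0.0012). The lines were apart for both. RPS7, RPS13 and RPS20 were 2.05-fold to 2.43-fold higher, also without overlap.

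The stalk proteins, which recruit elongation factors to the ribosome, differed in size. RPLP2 was at 7.18, 7.25 and 7.09 in pLUM and at 8.39, 8.40 and 8.74 in pLB, a difference of 1.33 ± 0.17 (adjusted p = 0.00041). Its dimer partner RPLP1 was at 7.86, 7.92 and 7.76 in pLUM and 8.21, 8.09 and 8.34 in pLB, a difference of 0.37 ± 0.16 that did not pass (adjusted p = 0.078), although the lines did not overlap. RPLP0, on which both sit, differed by 0.72 ± 0.23 (adjusted p = 0.028). The other tested RPLP0 probe differed by 0.42 ± 0.43, overlapped between the lines and did not pass (adjusted p = 0.42). RPSA, a 40S protein also known as a laminin receptor precursor, differed by 0.75 ± 0.18 (adjusted p = 0.0077). Of its 4 tested probes, which lay between 0.50 and 0.84, the other 3 did not pass. The call for RPLP0 was lost in 13 of 17 alternatives, and its difference ranged from 0.38 to 1.11.

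**Figure D4:**
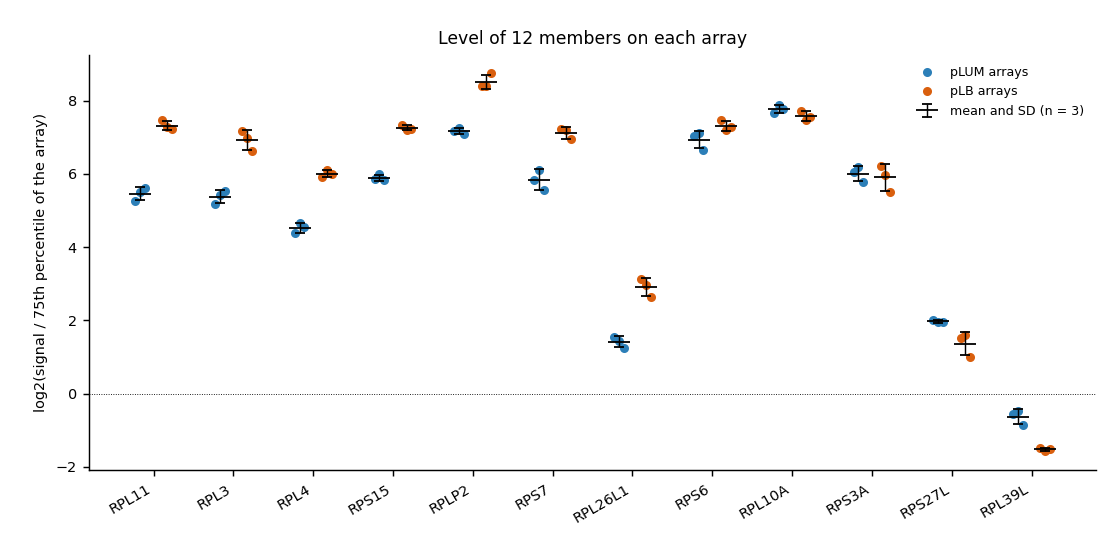
Level of 12 ribosomal protein genes on each array, as log2 of signal over the 75th percentile of the array (y axis), with pLUM arrays in blue and pLB arrays in orange. Black bars are means and SD of 3 arrays. RPL11, RPL3, RPL4, RPS15, RPLP2, RPS7 and RPL26L1 lie higher on every pLB array, RPL10A and RPS3A overlap, and RPS27L and RPL39L lie lower on every pLB array. Levels of different genes are not comparable, since each is 1 probe.

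Some core proteins showed little difference. RPL10A, a 60S protein of the stalk beside the tRNA exit site, was at 7.67, 7.87 and 7.77 in pLUM and 7.72, 7.47 and 7.55 in pLB, a difference of -0.19 with a 95% confidence interval of -0.57 to 0.19. RPS3A, which binds near the mRNA exit of the 40S subunit, was at 6.05, 6.18 and 5.78 in pLUM and 6.22, 5.97 and 5.51 in pLB, a difference of -0.10 (-0.64 to 0.43). Both overlapped between the lines, and both intervals leave out an increase of 2-fold. The difference of RPL10A depended on the processing and ranged from -0.53 to 0.06 in 17 alternatives. RPL9, RPL13, RPL22, RPL32, RPL35A, RPL41 and RPS18 likewise lay between -0.16 and 0.15 and did not pass.

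RPS6, the 40S protein that S6 kinases phosphorylate on a group of serines near its C-terminus, was at 7.02, 7.12 and 6.66 in pLUM and 7.46, 7.20 and 7.28 in pLB. The lines were apart, but the difference of 0.38 ± 0.19 did not pass (adjusted p = 0.12). Its probe reads the codons of that region and is shown for this reason, with 5 serine codons in capitals. It lies at chr9:19376306-19376365 of hg19, minus strand, and the array measures the mRNA and not its phosphorylated protein.
RPS6 probe: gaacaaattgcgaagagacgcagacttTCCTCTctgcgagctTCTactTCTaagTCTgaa

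Diamond-Blackfan anaemia is an inherited failure of red cell production caused by loss of 1 copy of a ribosomal protein gene. Of 12 such genes among the members, 7 were higher in pLB, or 58.3%, and 0 lower, with a median difference of 0.78. This share was close to the 59.5% of all members. RPL11, RPS7 and RPL5 were the 3 that were over 2-fold higher. RPS29, RPS19, RPS26 and RPS24 were called higher at 0.98, 0.90, 0.84 and 0.72. RPL15, RPS10, RPL26 and RPL35A had differences of 0.42, 0.38, 0.15 and 0.08 and did not pass. The calls of RPS19 and RPS24 were lost in 7 and 8 of 17 alternatives.

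The paralogs were mixed in direction. Of the 77 other members, 47 were higher, or 61%, and 0 were lower. Of the 7 paralogs 3 were higher, or 42.9% against 32.4% of all tested genes. Another 2 were lower, or 28.6% against 31.0% of all, so that both directions are also usual among all genes. The difference between the paralogs and the other members was not tested. RPL39L, a paralog of RPL39 best known from testis, was at -0.55, -0.47 and -0.87 in pLUM and at -1.48, -1.56 and -1.51 in pLB. The lines did not overlap, and the difference was -0.89 ± 0.17 (adjusted p = 0.0030). The parent gene RPL39 differed by 0.72 ± 0.20 in the other direction (adjusted p = 0.017).

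RPS27L, a p53-responsive paralog of RPS27, was at 2.01, 1.95 and 1.95 in pLUM and 1.50, 1.59 and 1.00 in pLB, a difference of -0.61 ± 0.20 (adjusted p = 0.032). RPS27 was at 8.42, 8.37 and 7.81 in pLUM and 8.56, 8.56 and 8.72 in pLB, a difference of 0.41 ± 0.21 that did not pass (adjusted p = 0.12). No array overlapped in either gene. The call of RPS27L was lost in 10 of 17 alternatives, with differences from -0.77 to -0.36. The probes of the pair read the same stretch of the coding sequence and are shown because the paralogs could be confused: of 54 aligned bases 42 were identical, and capitals mark the bases that differ.
RPS27 probe (hg19 chr1:153964053-153964112, plus strand): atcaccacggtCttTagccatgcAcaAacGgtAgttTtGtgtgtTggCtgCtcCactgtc
RPS27L probe (hg19 chr15:63447866-63447925, minus strand): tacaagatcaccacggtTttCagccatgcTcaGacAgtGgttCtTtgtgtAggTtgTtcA

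RPL26L1, a paralog of RPL26, was higher in pLB. It was at 1.55, 1.43 and 1.25 in pLUM and 3.11, 2.95 and 2.64 in pLB, a difference of 1.49 ± 0.19 (adjusted p = 0.00038). RPL26 itself was at 6.17, 6.29 and 5.87 in pLUM and 6.28, 5.92 and 6.57 in pLB, which overlapped, with a difference of 0.15 ± 0.22. RPL22L1 was higher by 0.80 ± 0.17 (adjusted p = 0.0043), and RPL22 differed by -0.16. RPL3L, known from muscle, was at the floor of the arrays, between -5.46 and -3.98, and its call at 0.71 was lost in 9 of 16 alternatives and reversed to -0.32 with normexp background correction. RPL7L1 differed by -0.08, and RPL10L by 0.41 from a gene family in which the closest pair of RPL10 and RPL10L probes was identical at 33 of 36 aligned bases, so that its signal is uncertain.

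For genes with several probes, the probes mostly moved together. Of the 43 genes with more than 1 tested probe, 31 had all their differences within 0.5 of each other and 6 spanned more than 1. RPL21 had the most, 9 probes between 0.30 and 0.67, of which the files place 1 on chromosome 10 and the others on chromosome 13. RPL28, RPS29 and RPS4X had probes called in opposite directions. Probes listed for the transcript of the brightest probe were higher at 77 of 150 and lower at 3. Probes listed for another transcript were higher at 5 of 13 and lower at 5, with a median of -0.10. Of all tested probes, 31.1% were higher and 31.6% lower. The difference between these sets of probes was not tested.

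RPL28 is an example. The probe for NM_000991 was at 5.88, 5.98 and 5.71 in pLUM and 6.84, 6.77 and 6.87 in pLB, a difference of 0.97 ± 0.16 (adjusted p = 0.0013). The probe for NM_001136137 was at -1.37, -0.86 and -0.81 in pLUM and -1.84, -1.89 and -1.71 in pLB, a difference of -0.80 ± 0.20 (adjusted p = 0.010). The probe for NM_001136136 was detected above background on 3 of 3 pLUM arrays and 0 of 3 pLB arrays, and was at least 2.13-fold lower in pLB (adjusted p = 0.0019).

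In RPS29 the 3 probes for NM_001032 were 0.98 to 1.04 higher, and the probe for NM_001030001 was 1.28, 1.93 and 1.37 in pLUM against 1.00, 0.39 and 0.06 in pLB, a difference of -1.04 ± 0.29 (adjusted p = 0.017). In RPS4X the bright probe differed by 0.63 ± 0.20 (adjusted p = 0.024) and a dim probe for another transcript by -1.12 ± 0.29 (adjusted p = 0.012). RPS6 and RPL15 also had a dim probe called lower, at -0.89 and -1.17. Of the 8 member probes called lower, 5 were listed for another transcript and 5 were below the 75th percentile. With the mean of all probes of a gene in place of the brightest, RPL28 and RPS4X turned to -0.10 and -0.24. The call of the bright RPS4X probe was also lost in 8 of 17 alternatives.

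RNA quality was read from pairs of probes on the same transcript, as the signal of the probe nearer the 3′ end minus that nearer the 5′ end, relative to the mean of the 6 arrays. Over 1250 pairs of any gene that lay 1200 to 5000 bases apart, the median was 0.26, 0.18 and 0.29 on the pLUM arrays and -0.01, -0.22 and -0.42 on the pLB arrays, so that the lines did not overlap. Over the 37 pairs of ribosomal protein probes, which were closer together, it was 0.13, -0.04 and -0.06 in pLUM and -0.11, -0.09 and 0.22 in pLB, which overlapped. Of the member probes, 5 shared a run of 30 bases with a probe of another name. The part of these values in the differences was not tested.

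Genes that work with the ribosomal proteins were read from lists. Several genes are in more than 1 list, and each share of genes called is to be read against the 32.4% of all tested genes called higher and the 31.0% called lower. Of 35 assembly factors, 24 were higher in pLB, or 68.6%, and 0 lower, and the median was 1.05. At 2-fold, 20 were higher, or 57.1% against 22.7% of all genes. Under quantile normalization and cyclic loess 14 and 16 of the 35 were called. In these settings 20.3% and 22.6% of all probes were 2-fold higher. NCL, the nucleolar protein nucleolin, was at 2.15, 2.23 and 2.35 in pLUM and 5.47, 5.37 and 5.05 in pLB, a difference of 3.06 ± 0.18 (adjusted p = 9.1e-06). NHP2L1, a protein of the box C/D snoRNPs and the spliceosome, was 4.23-fold higher (adjusted p = 5.3e-05). Neither overlapped between the lines.

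RNA polymerase I, which transcribes ribosomal RNA, was mixed. Of 15 genes of its machinery 6 were higher, or 40% against 32.4% of all genes, and 3 lower, or 20% against 31.0%, with a median of 0.29. POLR1A, its largest subunit, was 5.09-fold higher (adjusted p = 3.6e-05) and CD3EAP, another subunit, 3.91-fold higher (adjusted p = 3e-05). TAF1C, part of the promoter selectivity factor, was 2.33-fold lower (adjusted p = 0.0010).

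Translation factors were mostly higher. Of 29 initiation factors 20 were higher, or 69%, and 2 lower, or 6.9%, with EIF3C at 4.27-fold and EIF5B at 4.03-fold higher, and EIF1AX, which takes part in start codon scanning, 4.00-fold lower. Of 10 elongation factors 7 were higher, or 70%, and 2 lower, or 20%. EEF2, the translocase, was at 1.97, 2.28 and 3.07 in pLUM and 4.50, 4.48 and 3.36 in pLB, a difference of 1.67 ± 0.40 (adjusted p = 0.0082) without overlap. EEF2K, the kinase that inhibits EEF2, was 2.17-fold lower, and EIF5A2 2.12-fold lower.

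Other mRNAs known to carry a TOP tract were also mostly higher. Of 19, 16 were higher, or 84.2%, and 0 lower, with a median of 1.26, and 11 were over 2-fold higher, or 57.9% against 22.7% of all. The largest were EEF1B2, a guanine nucleotide exchange factor for EEF1A, at 1.98 ± 0.16 (adjusted p = 4.7e-05) and EIF4B, a cofactor of the EIF4A helicase, at 1.92 ± 0.30 (adjusted p = 0.0011). At 2-fold, 8 of the 19 were called under quantile normalization and 10 under cyclic loess, where 20.3% and 22.6% of all probes were 2-fold higher. The difference between this list and the ribosomal protein genes was not tested.

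Mitochondrial ribosomal proteins are made from nuclear genes for a separate ribosome. Of 76, 38 were higher, or 50%, and 10 lower, or 13.2%, with a median of 0.62, close to the 0.65 of the cytosolic genes, but with a wider range of -2.43 to 2.82. MRPL44 was 7.07-fold and MRPS17 4.51-fold higher, and MRPS25 was 5.40-fold and MRPL55 2.70-fold lower.

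**Figure D5:**
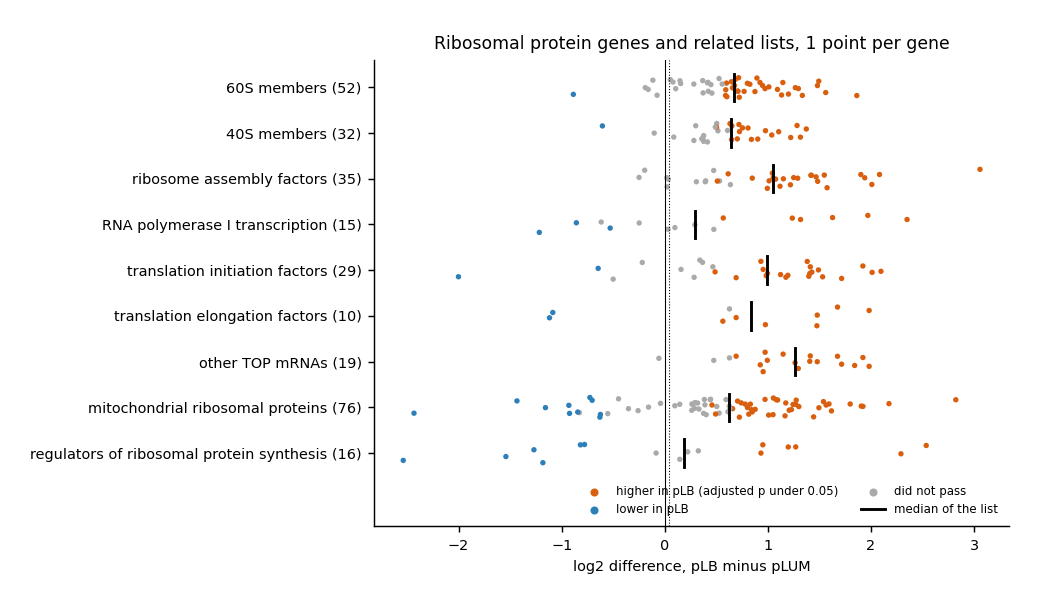
Log2 difference of pLB minus pLUM (x axis) of each gene in 9 groups (y axis, number of genes in parentheses), with bars for the group medians, a solid line at 0 and a dotted line at the median of all tested genes. Orange, blue and grey points are genes higher, lower or not passing at an adjusted p under 0.05. The ribosomal protein genes lie in a narrow band with medians of 0.67 and 0.64, assembly factors and other TOP mRNAs have medians of 1.05 and 1.26, and the regulators spread to both sides.

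Known regulators of ribosomal protein synthesis went both ways, with 6 of 16 higher and 6 lower, or 37.5% each. MYC, the transcription factor, was at 0.33, 0.54 and 0.82 in pLUM and 3.25, 3.33 and 2.71 in pLB, a difference of 2.53 ± 0.23 (adjusted p = 7.4e-05). EIF4EBP1, the repressor of cap binding that mTOR inactivates, was 4.89-fold higher (adjusted p = 2e-05). RPTOR, LARP1 and MTOR were higher by 1.27, 0.95 and 0.93.

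RPS6KB1, the S6 kinase, was at 0.54, 0.55 and 0.07 in pLUM and -2.35, -2.08 and -2.01 in pLB, a difference of -2.54 ± 0.20 (adjusted p = 3.9e-05). GABPA, an ETS factor that binds CCGGAAG, was 2.91-fold lower (adjusted p = 0.00018). TSC1 and TSC2, which restrain mTOR, were lower by 1.27 and 1.18 on the log2 scale. The genes of this list thus did not share a direction.

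Markers of other cell types were low. Of 6 fibroblast, 4 leukocyte and 4 endothelial markers on the array, 2, 4 and 2 were well above background on any array. Their summed signals, in units of the 75th percentile, were 0.77 to 0.97, 0.51 to 0.64 and 0.10 to 0.14 in pLUM, and 0.79 to 1.15, 0.38 to 0.52 and 0.12 to 0.25 in pLB, against 230.03 to 256 and 141 to 159 for 10 markers of the lines. COL1A2, a fibroblast collagen, was detected on 3 of 3 pLB arrays and 0 of 3 pLUM arrays. CD68, a macrophage protein, was 2.87-fold higher in pLB (adjusted p = 0.00039), and VWF, the endothelial von Willebrand factor, 2.08-fold (adjusted p = 0.0088), with 1 of 3 pLUM arrays above background. The part of these cells in the differences was not tested. With 3 arrays per line, p-values measure the spread between sorts, and an exact permutation test of single values cannot go below 0.1.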

How the data were processed

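The authors deposited Agilent Feature Extraction 10.10.1.1 output (hg19) for 6 arrays: a linear intensity per spot, background-corrected within its array and not normalized between arrays, with flags. From the deposited intensity, ratios to the 75th percentile of the same array were formed and log2 taken. Control spots were removed, as were spots flagged as outliers (296 to 387 an array), and repeat spots were averaged per probe. Probes flagged as well above background on 3 or more arrays were fitted with limma 3.58.1 (lmFit, eBayes) in R 4.3.3, and adjusted over all of them by Benjamini-Hochberg. The fit was tested on simulated data. Detected probes per array ranged from 21287 to 22778. The number of arrays limits the precision.

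Members, gene lists, motifs and tests were chosen with earlier results of these data known. Named are all members called at 2-fold, the 10 largest differences in each direction among members that passed and did not overlap, the paralogs, the stalk proteins and RPSA, the anaemia genes, genes with probes called in opposite directions, RPS6 and RPL10A, and of each other list the 2 largest called at 2-fold in each direction. RPS3A, RPS27, RPL26, RPL39, RPTOR, LARP1, MTOR, TSC1, TSC2 and the list of small differences were chosen after their values were seen. Promoter windows came from RefSeq (GRCh38.p14), and no position was converted between builds. Alternatives covered background correction, scaling, filter, test, probe rule, blocks and each array left out. Scan divided the arrays as slide did. Results of 2 member genes are not reported here, although the counts over all members include them.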

Additional observations from a re-analysis of the deposited data

How the results depend on the processing

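Direction held for the median of the member probes in every alternative run (0.29 to 0.84), and counts moved. Probes higher in pLB numbered 82, of which 29 were 2-fold higher, and probes lower 8, of which 4 were 2-fold lower. Genes higher were 50 and genes lower 2. Under quantile normalization the median was 0.29, with 42 probes higher, or 25.8% against 29.6% of all. Of these 9 were 2-fold higher, or 5.52% against 20.3%, and 27 genes were higher, or 32.1% against 30.7%. Under cyclic loess 44 probes were higher, or 27% against 32.9%, and 10 of them 2-fold, or 6.13% against 22.6%. The genes higher were 28, or 33.3% against 33.8%. Under spike-in scaling 54 probes were higher, or 33.1% against 28.8% of all, and 47 2-fold higher, or 28.8% against 27.1%. There 2 probes were lower and 1 2-fold lower, and 0 genes were lower, against 20.3% of all genes. With normexp 37 probes were 2-fold higher, or 22.7% against 13.0%, and 1 was 2-fold lower. Normexp and spike-in scaling moved the median of all probes to -0.26 and 0.24. With slide as a block, which rests on pLB replicate 1, 55 probes were 2-fold higher, or 33.7% against 22.5%, and 4 lower. After adjustment of the methods' t-test 2 probes were 2-fold lower and 5 lower. For the counts of probes lower in the alternatives no share of all probes is given here. Genes lower were 1 with normexp, median scaling, no filter, the slide block, the replicate block and this t-test. That is 1.19% of members, against 20.7% of all genes with no filter to 30.8% with median scaling. Leaving out 1 array at a time gave 51 to 94 probes higher, 33 to 51 genes higher and 1 to 2 genes lower. The genes lower were 1.19% to 2.38% of members, against 26.5% to 35.3% of all. The share of genes higher was 39.3% against 30.2% of all without pLUM replicate 3. It was 60.7% against 33.5% without pLB replicate 3. The cause of the moves in these counts was not tested.

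The replicate numbers did not pair the arrays: same-numbered arrays had correlations of deviations of -0.27, -0.09 and -0.22. With the replicate block 51 probes were higher, or 31.3% against 27.3% of all. The genes higher were 34, or 40.5% against 28.6%, and 1 gene was lower, or 1.19% against 28.0%.

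Of 40 named member genes 30 were called, and 20 of these kept direction and call in every alternative run for them. RPL3L reversed to -0.32 with normexp (adjusted p = 0.53), and RPL28 and RPS4X to -0.10 and -0.24 with the mean of all probes (adjusted p = 0.61 and 0.31). The counts of the other lists stayed within 1.5 times in the alternatives, which were added after seeing the data.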
